A study of Mus musculus with 6 samples.

Results

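The activin, GDF, BMP and follistatin genes were taken as the 9 rows of the deposited table named Inhba, Inhbb, Gdf15, Mstn, Fst, Fstl1, Fstl3, Bmp4 and Bmp6, out of 31273 gene symbols, and all 9 were found. Left ventricles of mice gave polyadenylated RNA for sequencing, from 3 libraries labelled cardiomyocyte-specific RBM20 overexpression and from 3 libraries labelled control. The study text calls the model a tamoxifen-inducible knock-in of unmutated RBM20, a splicing regulator of heart muscle, made as a model of dilated cardiomyopathy. The promoter that drives the Cre, the age, strain and sex of the mice, and whether controls carried the Cre or received tamoxifen, were not stated in any source used here. Values are TPM, each gene's share of all transcripts corrected for gene length and scaled to a fixed total, so that levels can be compared between genes.

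These genes belong to, or act on, the TGF-beta superfamily of secreted dimeric ligands. Activins, BMPs and most GDFs bind pairs of type II and type I receptor kinases, which phosphorylate SMAD proteins that then act on transcription. Activins and myostatin signal mainly through SMAD2 and SMAD3, BMPs through SMAD1, SMAD5 and SMAD9. GDF15 is an exception, with GFRAL as its receptor. Follistatins are secreted proteins that bind activins and myostatin and keep them from their receptors. In heart muscle GDF15 and activin A are known as ligands that are made under load and injury.

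Library facts bear on all values. Rbm20 was at 321, 913 and 907 TPM in overexpression replicates 1 to 3 and at 74.9, 90.9 and 79.5 TPM in control replicates 1 to 3, so the labels and the targeted gene go together. Esr1, the oestrogen receptor gene, was at 218, 52.98 and 199 TPM in overexpression replicates 1 to 3 and at 0.415, 0.234 and 0.3005 TPM in control replicates 1 to 3, and the library titles carry "cre" in the overexpression group and "cki" in the control group. An effect of the Cre or of tamoxifen cannot be told apart from one of RBM20 here. Overexpression replicate 1 stood apart from the other 5 libraries in sex, with Xist at 0.0172 TPM and Ddx3y at 88.1 TPM. Counted reads were estimated at 41600000 or more per library. Mitochondrially encoded transcripts took 36.7% to 41.0% of the TPM in overexpression libraries and 48.3% to 52.0% in control libraries, and the median log2(TPM + 1) difference of all 12404 tested genes was 0.55. A second scaling, the median of ratios over tested genes, divided each library by a factor of its own and brought this median to 0.01. Both scalings are given below, the second as "rescaled". The cardiomyocyte markers Myh6 and Tnnt2, of the contractile apparatus, averaged 3712 and 3268 TPM with overexpression and 4293 and 4259 TPM in control. Over the 8 listed cardiomyocyte markers the log2 difference ran from -3.20 to 0.51 in TPM and from -3.81 to -0.11 after rescaling. Fewer cells of a type and less RNA per cell cannot be told apart in such bulk samples.

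Of the 9 genes, 8 reached the filter of a mean of 1 TPM and were tested, and Mstn did not. All 8 were called higher with overexpression in deposited TPM (limma, adjusted p under 0.05), beside 59.0% of all tested genes, and 0 were called lower, beside 9.09%. After rescaling 6 of the 8 were called higher, beside 22.2% of all tested genes, and 0 lower, beside 24.0%. These 6 were Inhba, Gdf15, Fst, Fstl1, Fstl3 and Bmp4, and in the same 6 the 3 overexpression libraries lay above all 3 control libraries under both scalings, as they did in 62.1% of tested genes in TPM and in 28.3% after rescaling. None of the 8 lay below all controls in TPM, which 10.4% of tested genes did. Of the 8, 7 had a log2 difference of at least 1 in TPM, beside 19.9% of tested genes. In control 7 of the 8 averaged at least 1 TPM. Fst passed the filter only through the overexpression group, so it had to be higher there, and it is in each of these counts of higher genes. The median log2 difference of the 8 tested genes was 1.66, beside 0.55 for all tested genes, and 1.18 after rescaling, beside 0.01. Without overexpression replicate 2 the TPM count was 5, because Inhbb and Bmp6 lost the call and Fst fell under the filter.

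**Figure D1:**
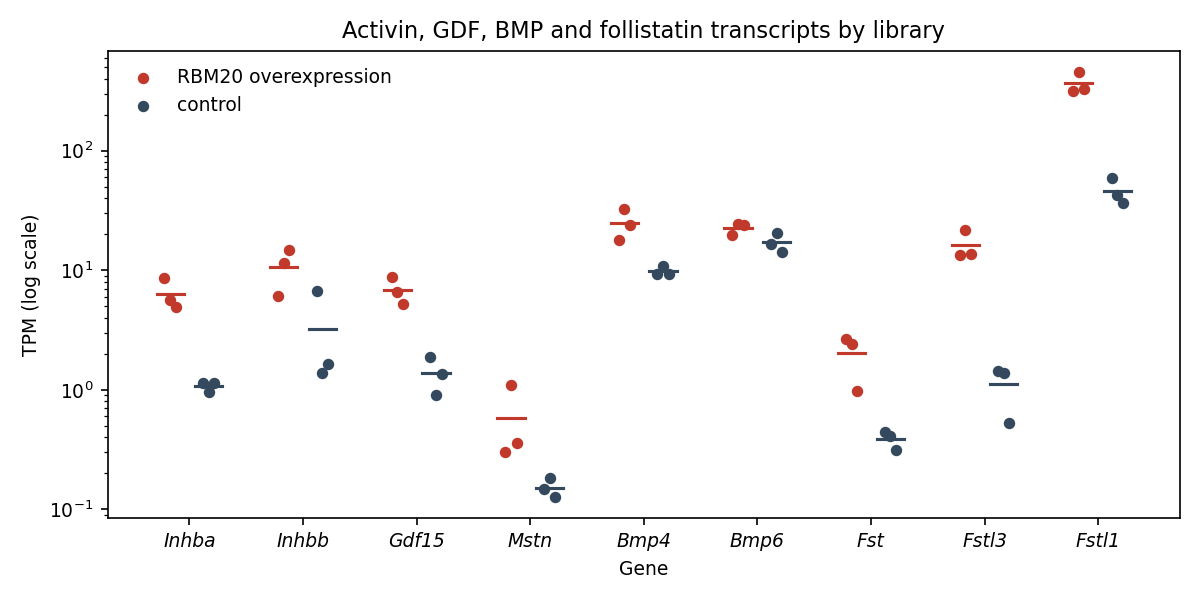
TPM of each of the 9 genes on a log axis, with 1 point per library and a bar at the mean of each group of 3. The groups lie apart in 7 genes, with overexpression higher, and overlap in Inhbb and Bmp6. Mstn, which is under the filter, is among the 7. All overexpression libraries lay above all controls in 62.1% of tested genes in TPM. Fstl1 is the most abundant, at 365 TPM with overexpression and 46.0 TPM in control.

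The activin subunit genes were both called higher in TPM. Inhba encodes the beta-A subunit that makes activin A. It was at 8.53, 5.62 and 4.92 TPM in overexpression replicates 1 to 3, and at 1.13, 0.961 and 1.15 TPM in control replicates 1 to 3. Every overexpression library thus stood well above a tight control group, and the ratio of the means was 5.88. The log2 difference was 1.79 (SE 0.202, adjusted p = 0.000136) and 1.35 after rescaling (adjusted p = 0.000919). The read numbers behind these values could be recovered exactly for Inhba, at 1061, 634 and 1033 reads with overexpression and 146, 174 and 127 in control.

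Inhbb, which encodes the beta-B subunit of activin B, was less uniform. It was at 6.06, 11.4 and 14.7 TPM in overexpression replicates 1 to 3 and at 6.71, 1.38 and 1.64 TPM in control replicates 1 to 3. Control replicate 1 was above overexpression replicate 1, so the groups overlapped. These values rest on 502, 857 and 2057 reads with overexpression and on 575, 166 and 121 in control. The log2 difference was 1.61 (SE 0.458, adjusted p = 0.0131), but after rescaling it was 1.10 and was not called (adjusted p = 0.106). The TPM call was also lost without overexpression replicate 2 (adjusted p = 0.0537) and without control replicate 3 (adjusted p = 0.0511). Without control replicate 1 the TPM difference was 2.15 (adjusted p = 0.000591) and the rescaled one was 1.69 (adjusted p = 0.00608). The same control library was high for Atf3, a stress-induced transcription factor, at 189 TPM against 27.3 and 32.2 TPM in control replicates 2 and 3; what part this has in the Inhbb values was not tested.

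Gdf15, a distant member of the family made by stressed cells, was at 8.71, 6.57 and 5.20 TPM in overexpression replicates 1 to 3. Control replicates 1 to 3 had 1.90, 0.913 and 1.34 TPM. The lowest overexpression library was above the highest control library, and the ratio of the means was 4.93. The log2 difference was 1.71 (SE 0.223, adjusted p = 0.000268) and 1.25 after rescaling (adjusted p = 0.0028). Gfral, which encodes the receptor for GDF15 and is known from the hindbrain, was listed at 0 in all 6 libraries.

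Mstn encodes myostatin, a brake on skeletal muscle growth that cardiomyocytes also make at a low level. It was at 0.304, 1.09 and 0.360 TPM in overexpression replicates 1 to 3 and at 0.147, 0.183 and 0.128 TPM in control replicates 1 to 3. The groups did not overlap, but the difference of the means was 0.432 TPM with overexpression replicate 2 and 0.179 TPM without it. Only 16, 52 and 32 reads stood behind the overexpression values and 8, 14 and 6 behind the control values. Where both ends of a pair were counted singly, the number of RNA fragments is lower still. An exact two-sided permutation test over the 6 libraries gave p = 0.1, the smallest that 3 against 3 allows. In a fit with no filter, Mstn had a log2(TPM + 1) difference of 0.43 and was not called (adjusted p = 0.104, unadjusted p = 0.0498). Of 8 skeletal muscle fibre genes, Tnni2 and Mylpf were tested and called higher under both scalings (log2 differences 1.83 and 2.38 in TPM), and Myh4 and Tnnc2 were at 0 in every library. The list summed to 18.5 to 26.8 TPM with overexpression and 3.65 to 6.04 TPM in control, and its part in the Mstn values was not tested.

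The BMP ligand genes differed from each other in how they moved. Bmp4, a ligand used in heart development and vessel walls, was at 17.9, 32.5 and 23.7 TPM in overexpression replicates 1 to 3 and at 9.29, 10.9 and 9.28 TPM in control replicates 1 to 3. Overexpression libraries spread widely yet stayed above all control libraries, and the ratio of the means was 2.51. The log2 difference was 1.21 (SE 0.200, adjusted p = 0.000887) and 0.62 after rescaling (adjusted p = 0.022). The rescaled call was lost when any of 4 libraries was left out (overexpression replicate 2 or 3, control replicate 1 or 3), with adjusted p of 0.0525 to 0.0681.

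Bmp6, known in liver as the endothelial signal that drives hepcidin, was at 19.8, 24.1 and 24.1 TPM in overexpression replicates 1 to 3 and at 16.7, 20.4 and 14.2 TPM in control replicates 1 to 3. Control replicate 2 was above overexpression replicate 1, so the groups overlapped. It was called higher in TPM by a small margin (log2 difference 0.39, SE 0.152, adjusted p = 0.0451), which is below the median of all genes, and its direction turned to -0.20 after rescaling (adjusted p = 0.269). The TPM call also ended in 4 of 6 fits that left out a library, with adjusted p of 0.0908 to 0.167. In GENCODE M21 Bmp6 overlaps Txndc5 on the other strand, at 78.7, 79.6 and 66.8 TPM in overexpression replicates 1 to 3 and 26.1, 21.8 and 24.4 TPM in control replicates 1 to 3. The sequencing was strand-specific per the labels' protocols, but no source used here states a strand setting for the counting. Whether the counting kept the reads of these genes apart cannot be told from the TPM values. Inhba, Fst, Fstl3 and Bmp4 also overlap genes on the other strand. Those matched by symbol reached at most 2.03 TPM in any library (Gm15222, beside Bmp4), and B230303A05Rik, beside Inhba, was not matched and not analysed here.

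Among the follistatin genes, Fstl3 and Fstl1 were called higher under both scalings, as were 59.0% of tested genes in TPM and 22.2% after rescaling, and the filter fixed the direction of Fst. Fstl3 encodes a follistatin-like protein that binds activin and myostatin. It was at 13.5, 21.5 and 13.7 TPM in overexpression replicates 1 to 3, against 1.45, 1.39 and 0.531 TPM in control replicates 1 to 3. All overexpression libraries were far above the control libraries, and the ratio of the means, 14.5, was the highest of the 9 genes. The log2 difference was 3.02 (SE 0.245, adjusted p = 3.48e-05) and 2.56 after rescaling (adjusted p = 0.000104).

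Fstl1 encodes a secreted glycoprotein with a follistatin-like domain. It was at 316, 454 and 327 TPM in overexpression replicates 1 to 3 and at 59.1, 42.6 and 36.4 TPM in control replicates 1 to 3. The ratio of the means was 7.94, and no overexpression library came near a control library. Its log2 difference was 2.97 (SE 0.195, adjusted p = 1.6e-05) and 2.35 after rescaling (adjusted p = 5.75e-05).

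Fst, follistatin itself, was much scarcer. It was at 2.67, 2.41 and 0.969 TPM in overexpression replicates 1 to 3, and at 0.442, 0.411 and 0.316 TPM in control replicates 1 to 3. Overexpression replicate 3 was the lowest of its group and still above all controls. The ratio of the means was 5.17, the log2 difference 1.07 (SE 0.249, adjusted p = 0.00505), and the rescaled difference 0.77 (adjusted p = 0.0232). These values and the calls of Fst after the filter are a description because the filter fixed its direction. A limma fit with no filter gave the same log2 difference, 1.07, with an adjusted p of 0.0136. The rescaled call was lost without control replicate 2 (adjusted p = 0.0626) or control replicate 3 (adjusted p = 0.0719), and without overexpression replicate 1 or 2 the gene fell under the filter.

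**Figure D2:**
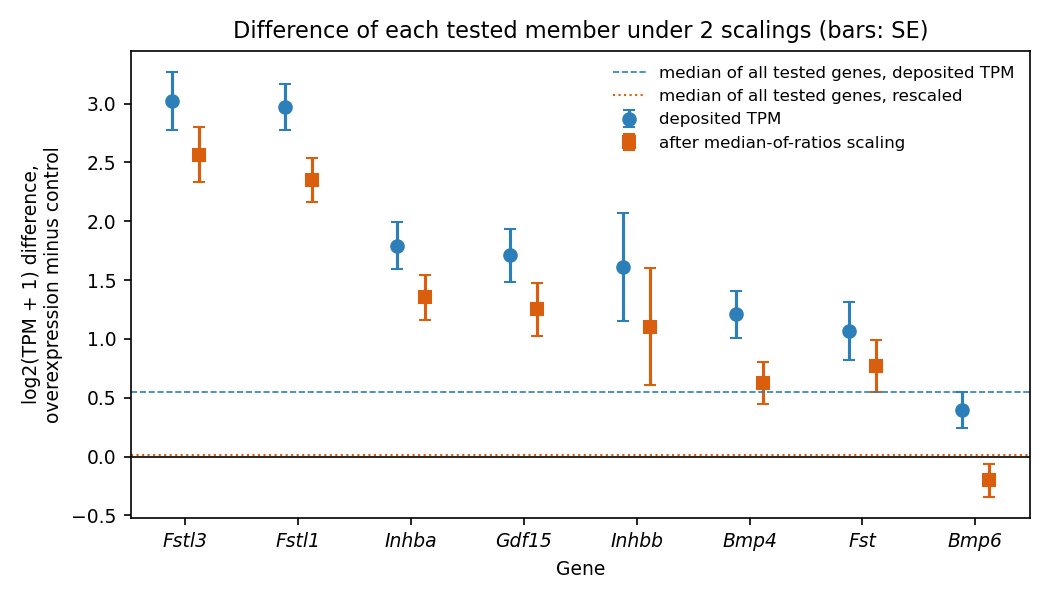
Log2(TPM + 1) difference, overexpression minus control, of the 8 tested genes with its SE, in deposited TPM (circles) and after rescaling (squares); dashed and dotted lines give the medians of all tested genes, 0.55 and 0.01. Rescaling lowers each gene, and Bmp6 is the gene that turns, to -0.20.

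Bases before the annotated start of 4 genes are shown because they cover the gene with the highest ratio of means (Fstl3), a ligand with a lower one (Bmp4), an activin subunit (Inhba) and the scarcest member (Mstn). The sequences are RefSeq windows of GRCm38.p6, 5′ to 3′ on the coding strand, cut to the 100 bases upstream of the start; capitals mark a TATA box (TATAAA) or a GC box (GGGCGG) on either strand, and in Fstl3 the GC boxes overlap each other.
Fstl3 (chr10:79777174-79777273, plus strand): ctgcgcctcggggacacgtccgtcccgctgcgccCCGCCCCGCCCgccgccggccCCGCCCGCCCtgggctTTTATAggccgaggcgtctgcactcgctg
Bmp4 (chr14:46390670-46390769, minus strand): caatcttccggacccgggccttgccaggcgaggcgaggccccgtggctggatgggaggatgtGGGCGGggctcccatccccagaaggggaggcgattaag
Inhba (chr13:16011751-16011850, plus strand): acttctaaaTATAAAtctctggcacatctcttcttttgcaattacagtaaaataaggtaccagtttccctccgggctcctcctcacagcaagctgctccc
Mstn (chr1:53061540-53061639, plus strand): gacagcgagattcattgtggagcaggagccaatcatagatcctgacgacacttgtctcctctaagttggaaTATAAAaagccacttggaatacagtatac
The Fstl3 stretch holds 1 TATA box and 4 GC boxes, and that of Bmp4 holds 1 GC box. Those of Inhba and Mstn hold 1 TATA box each and no GC box, and G and C make up 44% and 43% of their bases, against 79% in Fstl3 and 69% in Bmp4. Counted from the start, the TATAAA match begins at -91 in Inhba and at -29 in Mstn and in Fstl3.

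Full windows of 300 bases, 250 before and 50 after the start, were matched for 8 of the 9 genes, Gdf15 with more than 1 start, which gave 9 windows. Searched on both strands, TATAAA was in 3 of these 9 windows and in 13.6% of all 32851 windows, and GGGCGG was in 5 of 9 and in 35.7% of all. CCAAT was in 2 of 9 and 37.4% of all, and CAGAC, the short SMAD-binding sequence, in 5 of 9 and 49.6% of all. The AP-1 site TGANTCA was in 1 of 9 (Mstn) and 7.81% of all. These counts describe letters only.

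Ratios between members within a library do not depend on how libraries are scaled, and 6 pairs were compared with exact two-sided permutation tests, whose smallest possible p with 3 against 3 is 0.1. Fstl3 relative to Fst was 5.06, 8.94 and 14.2 in overexpression replicates 1 to 3 and 3.28, 3.38 and 1.68 in control replicates 1 to 3, without overlap (log2 difference 1.70, exact p = 0.1, adjusted over the 6 pairs 0.2). Inhba relative to Fstl3 was 0.630, 0.261 and 0.359 with overexpression and 0.784, 0.691 and 2.16 in control, also without overlap (log2 difference -1.44, exact p = 0.1, adjusted 0.2). In overexpression libraries there was thus more Fstl3 than Inhba RNA, whereas in control the balance varied by library.

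Bmp4 relative to Bmp6 was 0.902, 1.35 and 0.986 with overexpression and 0.556, 0.535 and 0.652 in control, a log2 difference of 0.87 (exact p = 0.1, adjusted 0.2), higher in 3 of 3 libraries. The other 3 pairs overlapped between the groups. Inhba relative to Fst averaged 3.36 with overexpression and 2.79 in control as geometric means, Inhbb relative to Inhba 1.63 and 2.30, and Mstn relative to Fst 0.267 and 0.391, each with exact p = 0.7; the direction of each of these 3 changed when 1 library was left out. With so few libraries these tests cannot pass an adjusted threshold of 0.05, and a p of 0.7 does not show that a ratio stayed the same.

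**Figure D3:**
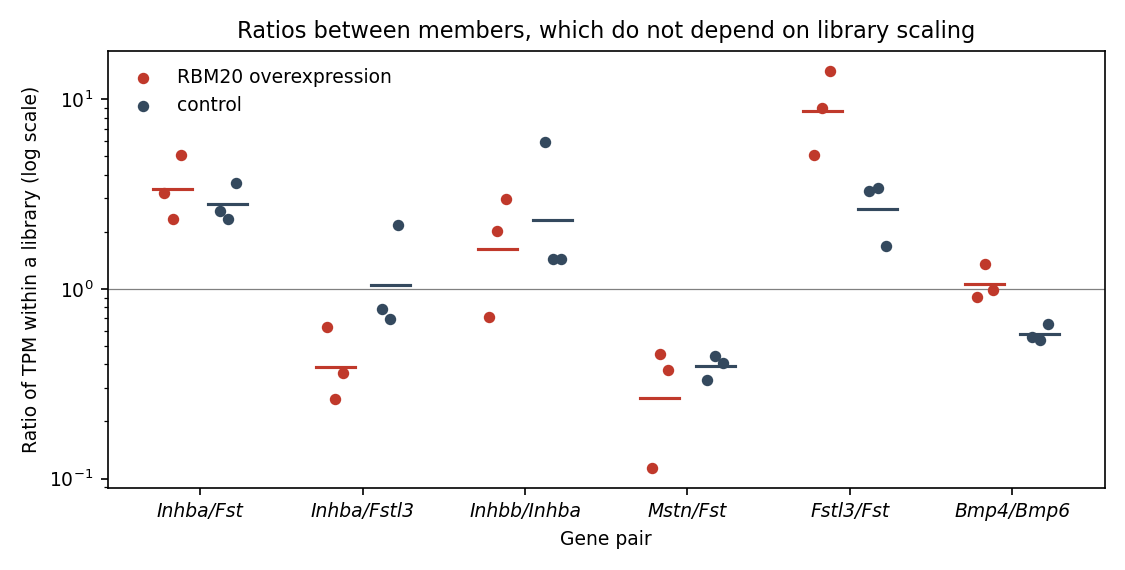
Ratio of the TPM of 2 genes within each library on a log axis, with 1 point per library and a bar at the geometric mean of each group. The groups lie apart for Inhba/Fstl3, Fstl3/Fst and Bmp4/Bmp6 and overlap for the other 3 pairs.

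By mean TPM the order with overexpression was Fstl1, Bmp4, Bmp6, Fstl3, Inhbb, Gdf15, Inhba, Fst and Mstn. Fstl1 was above Bmp4 and Inhba above Fst in every library, whereas all other neighbours had ranges that overlapped. In control the order was Fstl1, Bmp6, Bmp4, Inhbb, Gdf15, Fstl3, Inhba, Fst and Mstn. There the ranges of Inhbb, Gdf15, Fstl3 and Inhba overlapped from each to the next, and the other neighbours were apart. Fstl3 stood above Inhbb in mean TPM with overexpression and below it in control, at 16.3 ± 4.55 TPM with overexpression and 1.12 ± 0.513 TPM in control (SD, n = 3 each).

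The tested genes most like each member over the 6 libraries were found by the root mean square distance between log2(TPM + 1) profiles, each centred on its own mean. All these profiles share the 3 against 3 layout of the libraries and their depth, so a small distance is a description. Cfb, complement factor B, was nearest to Fst (distance 0.0381), and Bhlhe41 and Junb, both transcription factors, to Gdf15 (0.0521 and 0.0847). Inhba was nearest to Fcer1g, an Fc receptor chain that is also in the macrophage marker list (0.0812), and to Ifi211 (0.0985). Fstl3 was nearest to Fstl1 (0.15) and then Serpina3n (0.152), and Fstl1 itself to Shisa4 (0.124) and Fbn1, the gene of fibrillin-1 (0.128).

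Inhbb was nearest to Slc25a25 (0.183) and Adamts1 (0.221), which were also high in control replicate 1. Adamts1, a secreted metalloproteinase, was at 115, 136 and 167 TPM in overexpression replicates 1 to 3 and at 108, 32.8 and 30.7 TPM in control replicates 1 to 3. For Bmp4 the nearest were Pigl (0.0616) and Rbmxl1 (0.0635), and for Bmp6 they were Mospd3 (0.0584) and Arhgap21 (0.0716). The second nearest of Fst was Cysltr1 (0.0823).

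Other genes were read from lists of ligands, receptors, SMADs, antagonists, proteases and target genes of the pathway, and of integrated stress response genes. Together these lists hold 109 genes in the table, with each counted once, of which 73 were tested. These are called pathway genes below, although 12 of the 73 are from the integrated stress response list. In TPM 52 of the 73 were called higher and 2 lower, beside the 59.0% and 9.09% of all genes, and after rescaling 26 were higher and 8 lower, beside 22.2% and 24.0%. Their median log2 difference was 0.76, and 0.26 after rescaling. Of the 73, 67 averaged at least 1 TPM in control; the others passed the filter only through the overexpression group and had to be higher there.

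Of 27 other ligand genes 19 were under the filter, 3 of them at 0 in every library, and 8 were tested. Of these, Gdf6, Bmp2 and Lefty1 averaged under 1 TPM in control and passed the filter only through the overexpression group, so they had to be higher there. The other 5 were called higher in TPM, beside 59.0% of all tested genes. Tgfb2 and Tgfb3 were called higher after rescaling as well, beside 22.2%. Gdf6, a ligand of joints and bone, was at 29.2, 31.0 and 18.9 TPM in overexpression replicates 1 to 3, against 0.548, 0.499 and 0.147 TPM in control replicates 1 to 3. The log2 differences of Gdf6, 4.27 in TPM and 3.88 rescaled, are a description because the filter fixed its direction. Tgfb2 averaged 26.5 ± 9.60 TPM with overexpression and 3.61 ± 0.534 TPM in control, and Tgfb3 25.1 ± 2.84 and 7.70 ± 0.662 TPM (SD, n = 3 each). Bmp7, singled out after its values were seen, went the other way at a low level, with 0.112, 0.201 and 0.116 TPM in overexpression replicates 1 to 3 and 0.974, 0.461 and 0.834 TPM in control replicates 1 to 3, and was called lower only in the fit with no filter (adjusted p = 0.00775), where it could be tested.

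Of 15 tested receptor and co-receptor genes, 11 were called higher in TPM and 0 lower, beside 59.0% and 9.09% of all tested genes. After rescaling 3 were higher and 2 lower, beside 22.2% and 24.0%, with a rescaled median of 0.06. Tgfbr1, the type I receptor of TGF-beta, averaged 39.2 ± 12.2 TPM with overexpression and 9.85 ± 1.23 TPM in control (rescaled log2 difference 1.26, adjusted p = 0.000569), and Tgfbr2 averaged 28.7 ± 4.70 and 12.5 ± 2.10 TPM (SD, n = 3 each). Acvr1b, the main type I receptor of activin, averaged 16.0 ± 0.841 TPM with overexpression and 8.21 ± 1.43 TPM in control. Its call in TPM (log2 difference 0.90, adjusted p = 0.000842) was lost on rescaling (0.32, adjusted p = 0.0843). Among the 10 SMAD and SMAD ligase genes 7 were higher in TPM and 2 after rescaling, Smad2 (rescaled log2 difference 0.48, adjusted p = 0.0186) and Smurf1 (0.29, adjusted p = 0.0444). Smad4, the SMAD shared by both branches, was called in TPM (0.76, adjusted p = 0.00075) and not after rescaling (0.15, adjusted p = 0.266).

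Of 9 tested genes of other antagonists and binding proteins, the TPM test called 4 higher, beside 59.0% of all tested genes. The rescaled test called 2 higher and 1 lower, beside 22.2% and 24.0%. Bgn, a matrix proteoglycan that binds TGF-beta family ligands, averaged 698 ± 122 TPM with overexpression and 132 ± 21.6 TPM in control, and Bambi, a receptor-like decoy, 8.67 ± 2.00 and 2.55 ± 0.253 TPM (SD, n = 3 each). Twsg1, which binds BMPs, had a TPM call (log2 difference 0.85, adjusted p = 0.000111) that was lost on rescaling (0.23, adjusted p = 0.0597). Among 5 tested proteases that process ligand precursors, Furin averaged 75.1 ± 5.86 TPM with overexpression and 27.7 ± 2.55 TPM in control, and Bmp1 17.0 ± 1.93 and 7.56 ± 0.233 TPM (SD, n = 3 each), both called under both scalings. Pcsk6 was lower under both (log2 difference -0.50, adjusted p = 0.0193, and -1.11 after rescaling, adjusted p = 0.00101).

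Target genes of the activin and TGF-beta branch were called higher in 9 of 9 in TPM and in 6 of 9 after rescaling, with a rescaled median of 0.82. Of all tested genes 59.0% were higher and 9.09% lower in TPM, and 22.2% and 24.0% after rescaling. Among the 9, Ltbp2 passed the filter only through the overexpression group and had to be higher there. Ccn2, a matricellular growth factor gene, averaged 937 ± 84.5 TPM with overexpression and 190.5 ± 50.7 TPM in control, and Ltbp2 averaged 13.2 ± 3.44 and 0.680 ± 0.247 TPM (SD, n = 3 each). Target genes of the BMP branch were called higher in 5 of 10 in TPM, and after rescaling 3 were higher and 3 lower, with a rescaled median of -0.16. Id2 (rescaled log2 difference 0.46, adjusted p = 0.00843), Id4 (0.91, adjusted p = 0.0104) and Bambi (0.92, adjusted p = 0.00244) were the higher ones, and Id1, Id3 and Hey1 the lower ones. Id4, at 2.42 ± 0.261 TPM with overexpression and 0.482 ± 0.376 TPM in control (SD, n = 3 each), passed the filter only through the overexpression group and had to be higher there. The difference between these lists was not tested, and Smad7 is in both.

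Genes of the integrated stress response, a programme known to drive Gdf15, were called higher in 8 of 12 and lower in 1 in TPM. The shares of all tested genes were 59.0% and 9.09%. After rescaling 6 were higher and 1 lower, beside 22.2% and 24.0% of all tested genes. Phgdh, of serine synthesis, passed the filter only through the overexpression group and had to be higher there. Psat1, a serine synthesis enzyme, averaged 12.4 ± 2.14 TPM with overexpression and 1.45 ± 0.0983 TPM in control, and Aldh18a1, of proline synthesis, 10.2 ± 1.22 and 3.41 ± 0.403 TPM (SD, n = 3 each). Vldlr, a lipoprotein receptor, was the lower one (log2 difference -1.07, adjusted p = 5.72e-05). What part this programme has in the Gdf15 values was not tested.

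**Figure D4:**
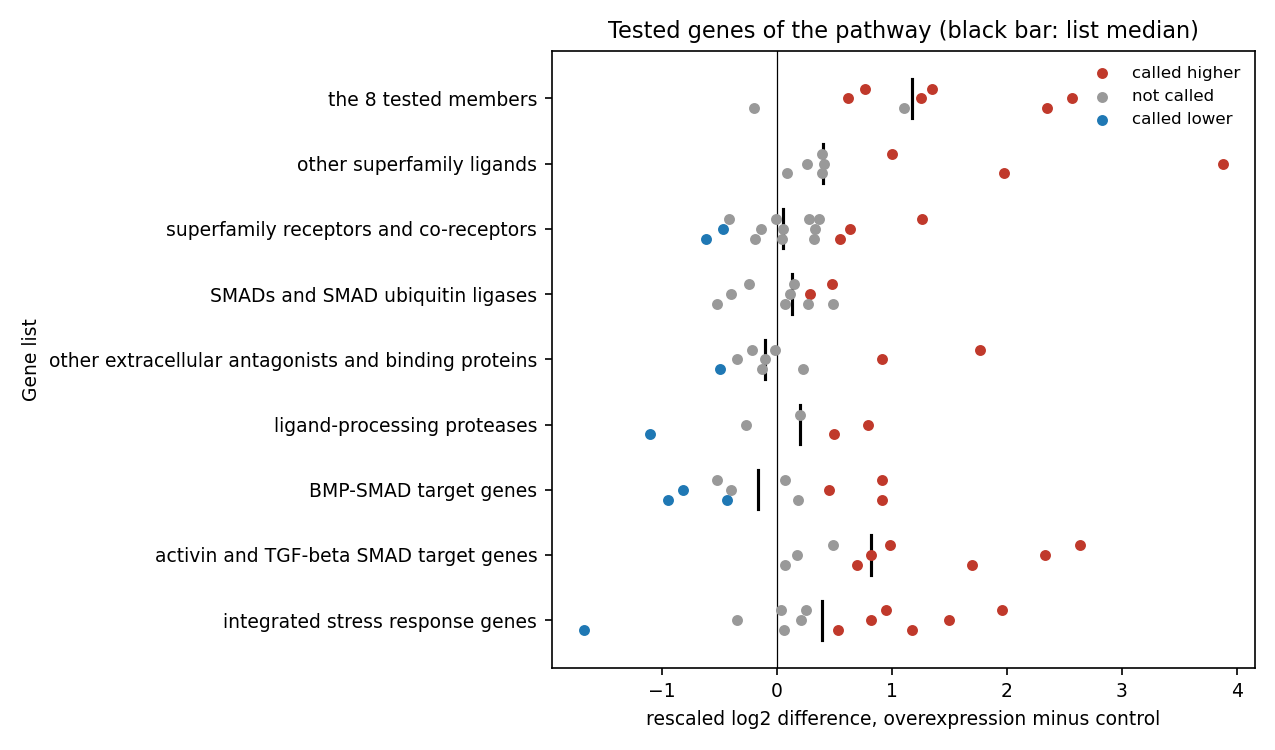
Rescaled log2 difference, overexpression minus control, of every tested gene by list, coloured by its call, with a black bar at the list median. The 8 tested members have a median of 1.18, the activin and TGF-beta targets 0.82 and the BMP targets -0.16.

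Markers of other cell types moved in the same libraries. Marker call counts, here and further below, stand beside 59.0% of all tested genes higher and 9.09% lower in TPM. After rescaling those shares were 22.2% and 24.0%. Activated fibroblast markers were called higher in 5 of 6 under both scalings, with a summed level of 465 to 855 TPM in overexpression libraries and 33.3 to 49.97 TPM in control libraries; Postn averaged 478 ± 150.1 and 10.7 ± 3.38 TPM, and Cthrc1, which passed the filter only through the overexpression group, 7.36 ± 3.98 and 0.294 ± 0.203 TPM (SD, n = 3 each). General fibroblast markers were higher in 6 of 8 in TPM, led by Col1a1 and Col1a2, and after rescaling 4 were higher and 2 lower (summed 1093 to 1494 TPM and 498 to 642 TPM). Macrophage markers such as Adgre1 and Cd68 were higher in 8 of 8 under both scalings (summed 532 to 829 TPM with overexpression and 209 to 264 TPM in control).

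Endothelial markers, Pecam1 and Cdh5 among them, were called higher in 1 of 8 in TPM, and after rescaling 0 were higher and 2 lower (summed 513 to 574 TPM with overexpression and 362 to 533 TPM in control). Pericyte and smooth muscle markers, which include Pdgfrb and Rgs5, were higher in 2 and lower in 1 of 7, and after rescaling higher in 1 and lower in 4 (summed 614 to 668 TPM and 592 to 725 TPM). Of 10 lymphocyte and neutrophil markers, S100a8 and S100a9 were tested, called higher in TPM and not after rescaling; the list summed to 11.6 to 32.1 TPM with overexpression and 5.50 to 7.01 TPM in control, and Cd3e and Cd3g had a mean under 1 TPM in both groups.

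Atrial markers were called higher in 4 of 5 in TPM and in 2 after rescaling (summed 2566 to 4210 TPM with overexpression, mostly Nppa, and 103 to 187 TPM in control), and Myl7 was at 35.4, 3.07 and 116 TPM in overexpression replicates 1 to 3, against 3.45, 1.08 and 3.13 TPM in control replicates 1 to 3. Only 4 of the 5 atrial markers averaged at least 1 TPM in control. The remaining marker passed the filter only through the overexpression group and had to be higher there. Of skeletal muscle fibre markers the 2 tested, Tnni2 and Mylpf, were higher under both scalings (sums given beside Mstn), while Myh1 and Myh2 stayed below 0.1 TPM. Cardiomyocyte markers were lower in 4 and higher in 1 of 8 in TPM, and lower in 7 after rescaling (summed 37734 to 42589 TPM and 42490 to 48360 TPM). The part of these cell types in the levels of the 9 genes was not tested.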

How the data were processed

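Left ventricular RNA of 6 mouse libraries was measured by strand-specific paired-end sequencing of polyadenylated RNA, per the labels' protocols. The deposited table holds TPM per gene symbol and library, computed by the authors. The submitters' processing notes name genome build mm8 and, with no roles, STAR-Fusion 1.11.0, GATK 4.2.6.1, edgeR 3.40.2 and featureCounts 2.0.3; aligner and annotation: not given in the sources used here. TPM share a fixed total, so a fall of abundant transcripts raises the other genes.

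Groups were taken from the genotype labels and replicates numbered in accession order, which pairs no libraries. The labels do not say that libraries are separate animals, so p-values measure the spread between these libraries. Genes averaging 1 TPM or more (12404 of 31273) were fitted as log2(TPM + 1) with limma 3.58.1 in R 4.3.3 (trended, two-sided, Benjamini-Hochberg over all tested genes, threshold 0.05). This scale understates changes of low genes; ratios are of mean TPM. Single values and ratios were tested by exact permutation (scipy 1.17.1). Alternatives were a pseudocount of 0.1 TPM, no filter or a mean of 5 TPM, median-of-ratios scaling, removal of mitochondrially encoded genes, limma without trend, and each library left out; leaving out a library after rescaling was added after seeing the data. Read numbers were recovered from the steps of low TPM values with GENCODE M21 gene lengths and came out whole, within 0.05 reads in all libraries, for 3 of the 9 genes (Inhba, Inhbb and Mstn); for the others no read number is given, and read ends may have been counted singly. The script was tested on simulated data. Members and lists were chosen with earlier results of these data known. Of each pathway list the 3 genes with the smallest p were named, of each marker list the first 2, and for each tested member the 2 nearest profiles; 1 gene that this rule names is not reported here, and other genes were named after their values were seen (Esr1, Gfral, Atf3, Bmp2, Lefty1, Phgdh, Txndc5, Bmp7, Id1, Id3, Hey1, Smad7 and markers beyond the first 2). Gene positions are those of GRCm38, not of the authors' build, and entered no test. Further tools were matplotlib 3.10.9, pandas 2.3.3 and numpy 2.4.6 under Python 3.11.15.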

Additional observations from a re-analysis of the deposited data

How the results depend on the processing

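The count of members called higher was 8 in TPM, 7 with no filter, without trend or with mitochondrial genes removed, and 5 with a filter of 5 TPM, under which 5 members were tested. It was 5 to 8 when a library was left out, and 4 to 6 when a library was left out after rescaling. For 0 members called lower, every one of these settings also gave 0; by limma 0 members were lower at an unadjusted p under 0.05 in TPM. Rescaling gave 2756 genes called higher and 2974 lower over all genes (7316 and 1127 in TPM), and 26 and 8 among pathway genes (52 and 2 in TPM). With mitochondrial genes removed 1718 genes and 4 pathway genes were lower. Leaving out a library gave 6198 to 7212 genes higher and 950 to 1088 lower in TPM, with 45 to 51 and 1 to 3 pathway genes; after rescaling these were 2045 to 2639 (2481, 2475, 2145 and 2084 between) and 2369 to 2839 genes (2746, 2787, 2562 and 2424 between), with 22 to 30 (24 or 25 in 4 fits) and 6 to 10 pathway genes. Without control replicate 1 or overexpression replicate 1, 1 pathway gene was lower. Bmp6 turned to -0.20 after rescaling and was -0.31, -0.29, -0.21, -0.19, -0.11 and -0.10 there with a library left out; it was not called with mitochondrial genes removed (0.13, adjusted p = 0.476), without trend (adjusted p = 0.0569) or with no filter (adjusted p = 0.0788). The cause of these changes was not tested, except that filters and left-out libraries change which genes are tested. Log2 ratios within a library moved by less than 1 SD with a library left out, from 0.70 to 0.99 for Bmp4/Bmp6, 1.34 to 2.09 for Fstl3/Fst and -1.78 to -0.92 for Inhba/Fstl3. Leaving out a library moved Mstn between 0.179 and 0.572 TPM, and rescaling gave 0.267. Rbm20 was called in all alternatives run, at 2.71 to 3.46 with a library left out. Mstn and Fst, at few reads or under 1 TPM in control, are the members that depth limits. No paired analysis was possible because the labels give no replicate numbers that the groups share.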
